A study of Homo sapiens with 6 samples.

Results

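The 9 genes described here encode tissue factor, its inhibitors and the cell-surface proteins that steer thrombin and plasmin, measured in H2452 cells with and without a guide RNA against *NF2*. They are *F3*, *TFPI* and *TFPI2* for the start of coagulation and its inhibitors, *THBD* and *PROCR* for the protein C pathway, and *PLAU*, *PLAUR*, *PLAT* and *SERPINE2* for plasminogen activation and its control. They were taken by gene symbol from a table of 58735 genes, and all 9 passed the filter on low counts that left 14179 genes to test. H2452 is an established pleural mesothelioma line, a tumor of the lining of the lung, and *NF2* encodes merlin, a tumor suppressor that acts upstream of the Hippo pathway. Cells received a lentiviral CRISPR construct that carried Cas9, an sgRNA and mCherry, and mCherry-positive cells were sorted. The sgCtrl group (3 libraries, genotype WT in the labels) carried a scrambled sgRNA, and the sgNF2-1 group (3 libraries, NF2-KO) carried an sgRNA against *NF2*. Both groups were grown in RPMI-1640 with fetal bovine serum and received no other treatment in the labels. The contrast therefore rests on 1 guide in 1 cell line, in sorted populations for which no single-cell cloning was described. The study describes its data in general as biological replicates, but neither the labels nor the sequencing methods say how the 3 libraries of a group were cultured, so p-values measure the spread between these libraries, which may be technical.

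Tissue factor is a membrane protein that binds factor VIIa and so starts the extrinsic pathway of coagulation, which ends in thrombin. Thrombin bound to thrombomodulin loses its clotting activity and instead activates protein C, which is presented to it by the endothelial protein C receptor. Clots are dissolved by plasmin, which the plasminogen activators uPA and tPA cut from plasminogen, and serpins hold these proteases in check. Mesothelial cells are a known source of tissue factor, thrombomodulin, uPA and its inhibitors in the pleural space, where fibrin forms and is cleared during injury.

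The stretches before the start sites of *F3* and *PROCR* are shown because both genes rose and RefSeq gives a promoter window for each that lies next to the gene in the files' annotation. They are from RefSeq (GRCh38.p14), run 5′ to 3′ along the gene and stop before the gene's first base in the files' annotation. *F3* lies on the minus strand and its stretch spans chr1:94541801-94542009. *PROCR* lies on the plus strand and its stretch spans chr20:35171822-35172071. Capitals mark matches, on either strand, to the AP-1 motif TGANTCA or the SP1 motif GGGCGG, and no match overlaps another.
*F3*: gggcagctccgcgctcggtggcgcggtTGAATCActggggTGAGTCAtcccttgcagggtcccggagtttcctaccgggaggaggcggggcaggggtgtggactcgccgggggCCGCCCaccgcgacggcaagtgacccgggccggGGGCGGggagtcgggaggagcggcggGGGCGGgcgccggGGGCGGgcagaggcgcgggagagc
*PROCR*: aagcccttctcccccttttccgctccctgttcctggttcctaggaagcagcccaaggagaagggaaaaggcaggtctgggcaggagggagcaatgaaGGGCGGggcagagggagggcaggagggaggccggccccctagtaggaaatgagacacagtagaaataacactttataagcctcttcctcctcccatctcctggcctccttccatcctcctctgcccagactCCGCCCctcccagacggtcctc

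The *F3* stretch holds 2 AP-1 matches, at positions -223 and -210 from the RefSeq start site, and 4 SP1 matches. The *PROCR* stretch holds 2 SP1 matches and no AP-1 match. Of the other members whose windows were searched, *TFPI2* and *PLAUR* hold 1 AP-1 match each. Their surroundings are shown because these were the only other AP-1 matches in the member windows. The first spans chr7:93890824-93890850 on the minus strand, at -87, and the second spans chr19:43670339-43670365 on the minus strand, at -186. Unlike the stretches of *F3* and *PROCR*, both lie inside the span annotated for their gene in the count data.
*TFPI2*: tccccgtgcaTGAATCAgccacccctc
*PLAUR*: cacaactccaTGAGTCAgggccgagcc

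In all, RefSeq windows of 7 of the 9 members were searched, with 9 windows of 300 bases among them. Member windows on chromosome 8, where *PLAT* lies, were left out of the search. AP-1 was found in 3 of these 9 windows, and in 7.71% of all 35116 promoter windows of that length. SP1 was found in 6 of the 9 and in 45.0% of all windows. The TEAD motif GGAATG was found in 0 of the 9 and in 14.0% of all windows, a statement about these letters in these windows alone. The matches describe the sequence and were not tested against the expression values.

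Libraries held between 14782423 and 17416463 counts in total. Library pairs within a group differed by a chi-square per degree of freedom of 5.08 to 12.4, above counting noise, and pairs from different groups by 39.3 to 51.6. The targeted gene, *NF2*, was counted 1162, 1197 and 1025 times in sgCtrl and 692, 802 and 590 in sgNF2-1. Expressed as CPM, the count relative to the TMM-scaled library total, sgCtrl was at 71.4 ± 3.36 and sgNF2-1 at 44.2 ± 6.77 (SD, n = 3 each), or 62.0% of control, so RNA from the gene was still counted in every sgNF2-1 library.

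Of the 9 genes, *F3*, *THBD*, *PROCR* and *PLAU* rose in sgNF2-1 by edgeR's quasi-likelihood test at an adjusted p under 0.05, and 0 fell. The other 5, *TFPI*, *TFPI2*, *PLAUR*, *PLAT* and *SERPINE2*, did not pass. At the same threshold 17.7% of all 14179 tested genes were higher and 16.6% lower in sgNF2-1. At an unadjusted p under 0.05 there were again 4 members higher and 1 lower, against 22.1% and 21.3% of all tested genes. The lower one was *SERPINE2*, which DESeq2 also called lower after adjustment. With a log2 fold change above 0.5 required as well, 3 members were higher, against 8.42% of all tested genes. The groups did not overlap for 5 members, 4 higher and 1 lower in sgNF2-1, where 23.2% and 22.2% of all tested genes were separated in those directions. The median log2 fold change was 0.063 over the 9 members and -0.003 over all tested genes.

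**Figure D1:**
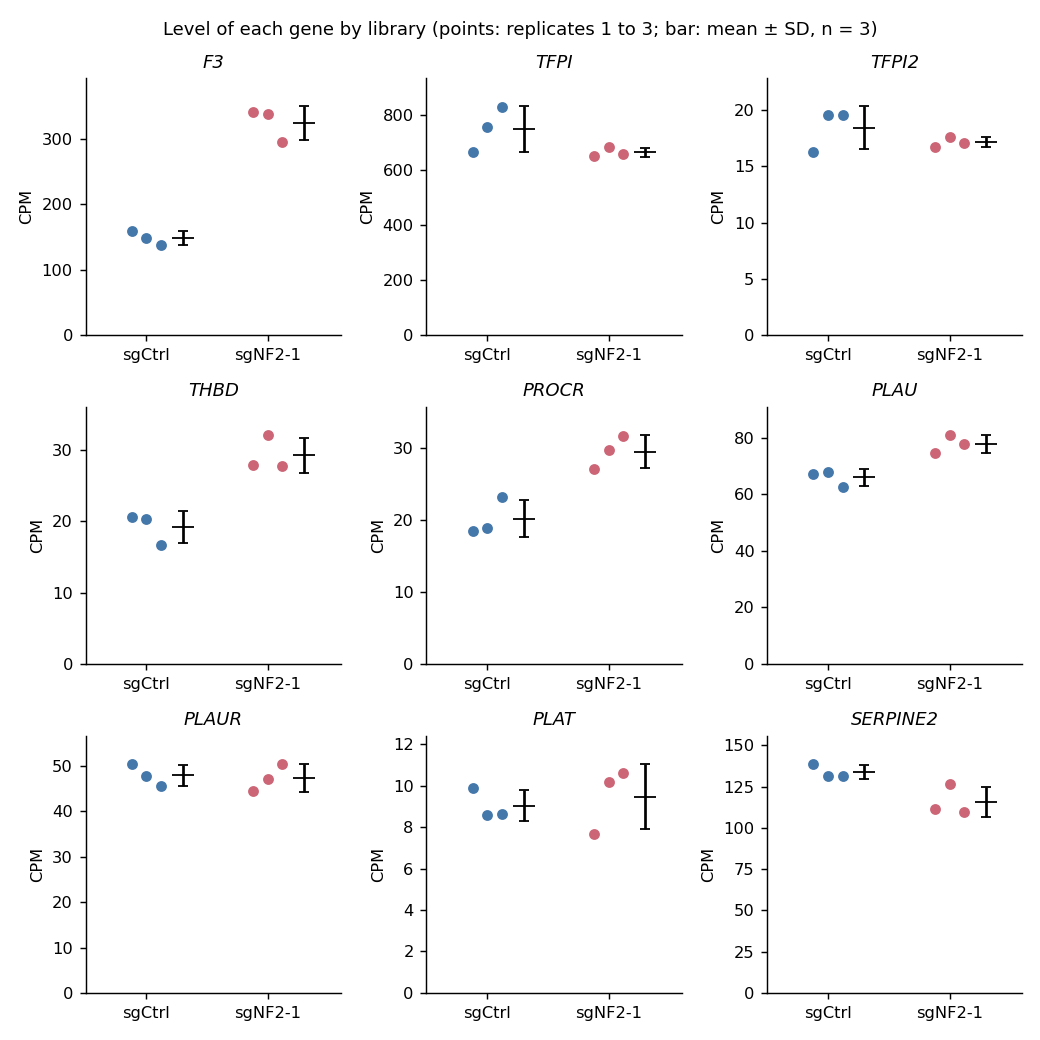
Level of each of the 9 genes in every library, in CPM (vertical axes from 0), for 3 sgCtrl and 3 sgNF2-1 libraries, with points for libraries and bars for the mean ± SD. The sgNF2-1 points lie above all sgCtrl points for *F3*, *THBD*, *PROCR* and *PLAU*, below them for *SERPINE2*, and the groups overlap for the other 4 genes.

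*F3* (ENSG00000117525, chromosome 1, 94529225 to 94541800), which encodes tissue factor, changed most among the 9 genes. The sgCtrl libraries gave 2516, 2434 and 2096 counts of it and the sgNF2-1 libraries 5991, 5222 and 4196. Scaled to CPM, the sgCtrl libraries were at 159.6, 148.3 and 138.1 and the sgNF2-1 libraries at 340.5, 338.3 and 294.6. The lowest sgNF2-1 library was well above the highest sgCtrl library, and replicate 3 was the lowest of its group on either side. The mean rose from 148.7 ± 10.8 to 324.5 ± 25.9 CPM (SD, n = 3 each), a 2.18-fold increase. The log2 fold change was 1.13 (standard error 0.086, 95% interval 0.95 to 1.30, edgeR adjusted p = 2.6e-10). It was the 255th highest among the 14179 tested genes, and it stayed between 1.08 and 1.20 and past the threshold in all 12 alternative fits.

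The inhibitor that acts on the tissue factor complex did not rise with it. *TFPI* (ENSG00000003436, chromosome 2, 187464230 to 187565760), a Kunitz-type inhibitor of factor Xa and of tissue factor bound to factor VIIa, was at 664.5, 756.2 and 830.5 CPM in sgCtrl and at 650.1, 683.0 and 659.7 CPM in sgNF2-1. The groups overlapped, since sgCtrl replicate 1 lay inside the sgNF2-1 range, and the sgCtrl libraries were spread more widely. The log2 fold change was -0.18 (95% interval -0.36 to 0.005, edgeR adjusted p = 0.13), and without sgCtrl replicate 1 it was -0.26 (edgeR adjusted p = 0.045), the only one of the 12 alternatives under the threshold. The upper end of its interval, 0.005, lay below the lower end of the interval of *F3*, 0.95.

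*TFPI2* (ENSG00000105825, chromosome 7, 93885396 to 93890991) encodes a related Kunitz-type inhibitor of plasmin and other proteases that is laid down in the extracellular matrix. It was at 16.2, 19.6 and 19.6 CPM in sgCtrl and at 16.8, 17.6 and 17.1 CPM in sgNF2-1. All sgNF2-1 values lay within the range of the controls. The log2 fold change was -0.11 (95% interval -0.36 to 0.15, edgeR adjusted p = 0.54).

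Both genes of the protein C pathway rose, where 17.7% of all tested genes were higher. *THBD* (ENSG00000178726, chromosome 20, 23045633 to 23049741) encodes thrombomodulin, the thrombin receptor that turns thrombin towards protein C. It had 325, 333 and 253 counts in sgCtrl and 490, 495 and 395 in sgNF2-1. In CPM these were 20.6, 20.3 and 16.7 against 27.9, 32.1 and 27.7, with no overlap. Its mean rose from 19.2 ± 2.19 to 29.2 ± 2.47 CPM (SD, n = 3 each), with a log2 fold change of 0.61 (standard error 0.12, 95% interval 0.36 to 0.85, edgeR adjusted p = 0.00027).

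*PROCR* (ENSG00000101000, chromosome 20, 35172073 to 35216240) encodes the endothelial protein C receptor, which holds protein C at the membrane. It had 291, 311 and 352 counts in sgCtrl and 477, 459 and 452 in sgNF2-1, which gave 18.5, 18.9 and 23.2 CPM against 27.1, 29.7 and 31.7 CPM. The groups were separate, although the highest control was only a little below the lowest sgNF2-1 library. Its mean rose from 20.2 ± 2.60 to 29.5 ± 2.32 CPM (SD, n = 3 each), with a log2 fold change of 0.55 (standard error 0.12, 95% interval 0.30 to 0.79, edgeR adjusted p = 0.00077). Both genes passed in all 12 alternative fits, *THBD* at log2 fold changes from 0.52 to 0.66 and *PROCR* from 0.49 to 0.66.

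Of the 4 genes of plasminogen activation and its control, 1 passed the test, with a small change. Among all tested genes 17.7% were higher and 16.6% lower. *PLAU* (ENSG00000122861, chromosome 10, 73909177 to 73917497) encodes uPA, the protease that activates plasminogen at the cell surface. It was at 67.3, 67.9 and 62.7 CPM in sgCtrl and at 74.5, 81.0 and 78.0 CPM in sgNF2-1, on 951 to 1311 counts per library, with no overlap. The mean rose 1.18-fold, from 66.0 ± 2.88 to 77.8 ± 3.24 CPM (SD, n = 3 each), with a log2 fold change of 0.24 (95% interval 0.062 to 0.41, edgeR adjusted p = 0.033). This call passed in 6 of the 12 alternative fits, with adjusted p from 0.026 to 0.14, and it was lost with library totals, with no filter, without sgCtrl replicate 1, 2 or 3 (adjusted p = 0.058, 0.063 and 0.086) and without sgNF2-1 replicate 2 (adjusted p = 0.14).

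*PLAUR* (ENSG00000011422, chromosome 19, 43646095 to 43670547), the receptor that anchors uPA to the membrane, was at 50.4, 47.8 and 45.6 CPM in sgCtrl and at 44.4, 47.1 and 50.5 CPM in sgNF2-1. The ranges nearly coincided. Its log2 fold change was -0.019 (95% interval -0.21 to 0.18, edgeR adjusted p = 0.90). *PLAT* (ENSG00000104368, chromosome 8, 42175233 to 42207724) encodes tPA, the other plasminogen activator and the one that activates plasminogen mainly at fibrin. It was at 9.90, 8.59 and 8.63 CPM in sgCtrl and at 7.67, 10.2 and 10.6 CPM in sgNF2-1, so sgNF2-1 held both the lowest and the highest library. Its log2 fold change was 0.063, and with 131 to 157 counts per library the 95% interval was wide, from -0.27 to 0.39 (edgeR adjusted p = 0.80).

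*SERPINE2* (ENSG00000135919, chromosome 2, 223975112 to 224039319) encodes protease nexin-1, a serpin that inhibits thrombin, uPA and plasmin. It was at 138.8, 131.3 and 131.5 CPM in sgCtrl and at 111.3, 126.3 and 109.6 CPM in sgNF2-1. Each sgNF2-1 library was below each sgCtrl library, with sgNF2-1 replicate 2 close to the controls. The means were 133.9 ± 4.24 and 115.7 ± 9.17 CPM (SD, n = 3 each), and the log2 fold change of -0.21 (95% interval -0.38 to -0.039) missed the threshold at an edgeR adjusted p of 0.053. It passed in 6 of the 12 alternative fits, over which the adjusted p ran from 0.034 to 0.19. Those were DESeq2 (0.045), edgeR with DESeq2's size factors (0.04999), library totals (0.034), at least 10 counts in every library (0.039), the replicate block (0.035) and leaving out sgNF2-1 replicate 2 (0.039).

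For the 5 members whose groups did not overlap, a two-sided exact permutation test of the difference in mean CPM gave p = 0.1, the smallest that 3 libraries against 3 allow. The same exact test gave p = 0.2 for *TFPI*, 0.4 for *TFPI2*, 0.8 for *PLAUR* and 0.8 for *PLAT*. The plot of the alternative fits shows how far apart these cases lie.

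**Figure D2:**
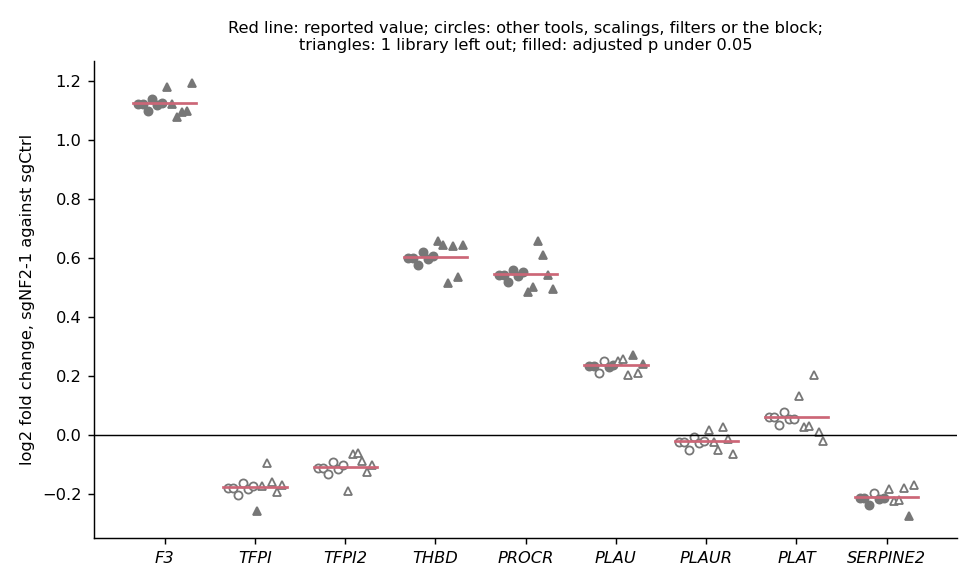
Log2 fold change of each gene (vertical axis, sgNF2-1 against sgCtrl) as reported (red line) and in 12 alternative fits, with circles for other tools, scalings, filters or the replicate block, triangles for fits without 1 library, and filled symbols for an adjusted p under 0.05. *F3* stays between 1.08 and 1.20 and is filled throughout, whereas *PLAU* and *SERPINE2* are filled in 6 of 12.

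FPKM values, which divide the count by gene length and library depth, allow levels to be compared between genes. In sgCtrl, *TFPI* was the highest of the 9 at 60.7 ± 6.68 FPKM (SD, n = 3) and *F3* followed at 49.0 ± 3.58 FPKM, and their library ranges did not overlap. Below them came *PLAU* at 21.2 FPKM, *SERPINE2* at 14.3, *PROCR* at 11.3, *PLAUR* at 10.2, *TFPI2* at 6.52, *THBD* at 4.43 and *PLAT* at 1.30 FPKM (means, n = 3). *PROCR* and *PLAUR* were the only neighbours in this order whose ranges overlapped.

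In sgNF2-1 the order of the first pair was the opposite, with *F3* at 106.0 ± 8.60 FPKM and *TFPI* at 53.3 ± 1.48 FPKM (SD, n = 3 each). *PROCR* at 16.4 FPKM lay above *SERPINE2* at 12.2, and *THBD* at 6.68 FPKM lay above *TFPI2* at 6.01. No neighbours in that order had overlapping ranges. The FPKM level of *F3* exceeded that of 94.1% of the tested genes in sgCtrl and of 97.5% in sgNF2-1, while that of *PLAT* exceeded 27.5% and 29.4%. The length behind the *TFPI* values, 11714 bases, is the union of the exons of 12 annotated transcripts, and a cell that uses a shorter form would have a higher level per length than this scale gives. The same limit holds for *SERPINE2*, with 8891 bases from 10 annotated transcripts. In CPM it was above *PLAU* and *PROCR* in every library.

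**Figure D3:**
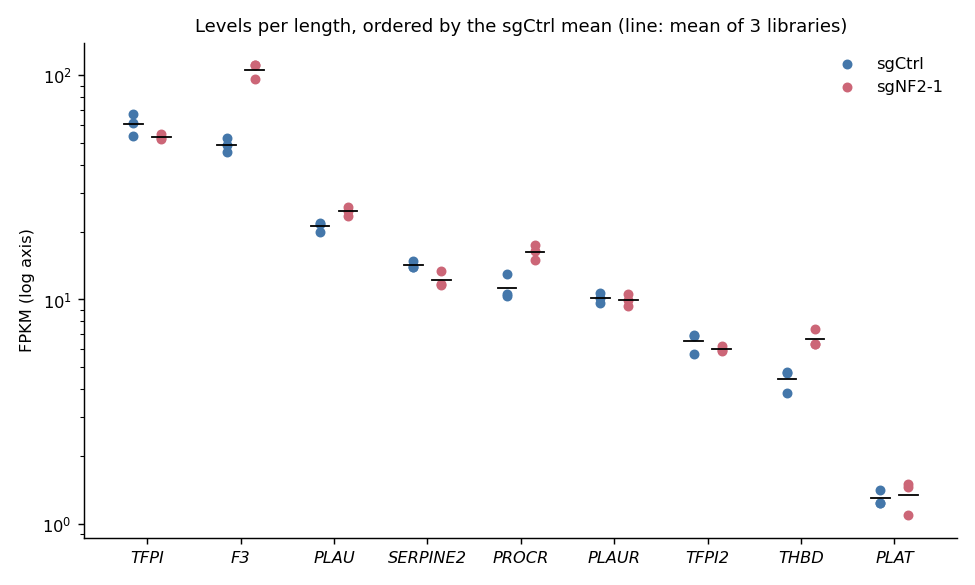
Levels of the 9 genes in FPKM (vertical log axis), ordered by the sgCtrl mean, with points for libraries and lines for the mean of 3. *TFPI* is the highest in sgCtrl (60.7 FPKM) and *F3* in sgNF2-1 (106.0 FPKM), and *PLAT* is the lowest in either group (1.30 and 1.35 FPKM).

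Tested on log2(FPKM + 1) with limma, the same 4 members were higher, where 14.3% of 13038 tested genes were higher. The other members did not pass. The difference was 1.10 for *F3* (limma adjusted p = 0.00018), 0.50 for *THBD* (0.0068), 0.50 for *PROCR* (0.0081) and 0.22 for *PLAU* (0.040). *SERPINE2* differed by -0.21 on this scale (limma unadjusted p = 0.02, adjusted p = 0.065).

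The balance between partners can be read from ratios of FPKM within a library, given here as a description with no test. *F3* over *TFPI* was 0.979, 0.799 and 0.678 in sgCtrl and 2.13, 2.02 and 1.82 in sgNF2-1. Tissue factor RNA was therefore below that of its inhibitor in each control library and above it in each sgNF2-1 library, on this length scale. In CPM, which does not divide by length, *TFPI* was above *F3* in every library. Their order in sgNF2-1 thus depends on the lengths used. *PLAU* over *PLAUR* was 2.08 ± 0.0636 in sgCtrl and 2.49 ± 0.138 in sgNF2-1, and *PLAU* over *SERPINE2* was 1.49 ± 0.065 and 2.03 ± 0.106 (SD, n = 3 each). In CPM *SERPINE2* was above *PLAU* in every library, so the order of these 2 genes also depends on the lengths used. *PROCR* over *THBD* was 2.60 ± 0.668 and 2.46 ± 0.277, so the pair kept overlapping ratios, from 2.17 to 3.37 in sgCtrl and from 2.25 to 2.77 in sgNF2-1.

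Of 47 other genes of coagulation and fibrinolysis in 6 lists, 23 could be tested. By edgeR's adjusted p, 0 were higher in sgNF2-1, 8 were lower and 15 did not pass, where 17.7% of all tested genes were higher and 16.6% lower. At an unadjusted p under 0.05, 0 were higher and 10 lower, beside 22.1% and 21.3% of all tested genes, and DESeq2 also called 0 higher. The median log2 fold change was -0.24 over the 23 and -0.003 over all tested genes. The lists were chosen with earlier results of these data known.

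Of the 4 thrombin and protease-activated receptors, 3 were tested, 2 fell and 0 rose. Among all tested genes 16.6% were lower and 17.7% higher. *F2RL3*, which encodes the thrombin receptor PAR4 and is named after its values were seen, had 0 counts in all 6 libraries. *F2R*, the main thrombin receptor PAR1, had 2218, 2149 and 2275 counts in sgCtrl and 1457, 1067 and 904 in sgNF2-1. The groups were apart, with means of 140.5 ± 9.50 and 71.8 ± 9.93 CPM (SD, n = 3 each), and the gene fell by 0.97 on the log2 scale (edgeR adjusted p = 1.8e-08). *F2RL2*, which encodes PAR3, a cofactor for thrombin cleavage of other receptors, changed by -0.96 (edgeR adjusted p = 0.00058), from 108 to 135 counts in sgCtrl to 51 to 72 in sgNF2-1. *F2RL1*, the receptor PAR2 that the tissue factor complex itself can cleave, had 66 to 82 counts in sgCtrl and 56 to 123 in sgNF2-1, with a log2 fold change of 0.24 (edgeR adjusted p = 0.42).

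Against 16.6% lower and 17.7% higher among all tested genes, 4 of 7 tested genes for plasminogen receptors and clearance fell and 0 rose. They were *S100A10*, a subunit of a plasminogen-binding complex with annexin A2 (-0.38), *LRP1*, an endocytic receptor that clears protease-inhibitor complexes (-0.29), *MRC2*, a collagen receptor found with the uPA receptor (-0.55), and *VTN*, vitronectin, a matrix protein that binds the uPA receptor (-0.41), all log2 fold changes. The edgeR adjusted p of *LRP1* was 0.012, but 0.13 without sgCtrl replicate 2 and 0.062 without sgNF2-1 replicate 1, and that of *VTN* was 0.0059 but 0.072 without sgNF2-1 replicate 1. Of the 4 tested inhibitors of fibrinolysis, *SERPINI1*, neuroserpin, which inhibits tPA, fell from 12, 23 and 19 counts to 5, 2 and 2 (edgeR adjusted p = 0.00083). *SERPINB2*, a serpin that inhibits uPA and tPA, had a log2 fold change of -0.15 and did not pass (edgeR adjusted p = 0.45).

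Of the 5 genes for the vitamin K cycle and factor secretion, *LMAN1*, a cargo receptor for factors V and VIII, was lower (-0.64, edgeR adjusted p = 3.4e-06). At the same threshold 16.6% of all tested genes were lower and 17.7% higher. None of the 3 tested coagulation factors and cofactors and not the 1 tested anticoagulant serpin passed. Genes for the precursors of thrombin, plasmin and factors VIIa and Xa were hardly counted in these cells. *F2* (prothrombin), *F7* and *PLG* (plasminogen) had 0 counts in all 6 libraries, and 14 of the 47 genes were at 0 throughout. *F10* had 9, 11 and 4 counts in sgCtrl and 5, 3 and 4 in sgNF2-1 and was not tested.

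**Figure D4:**
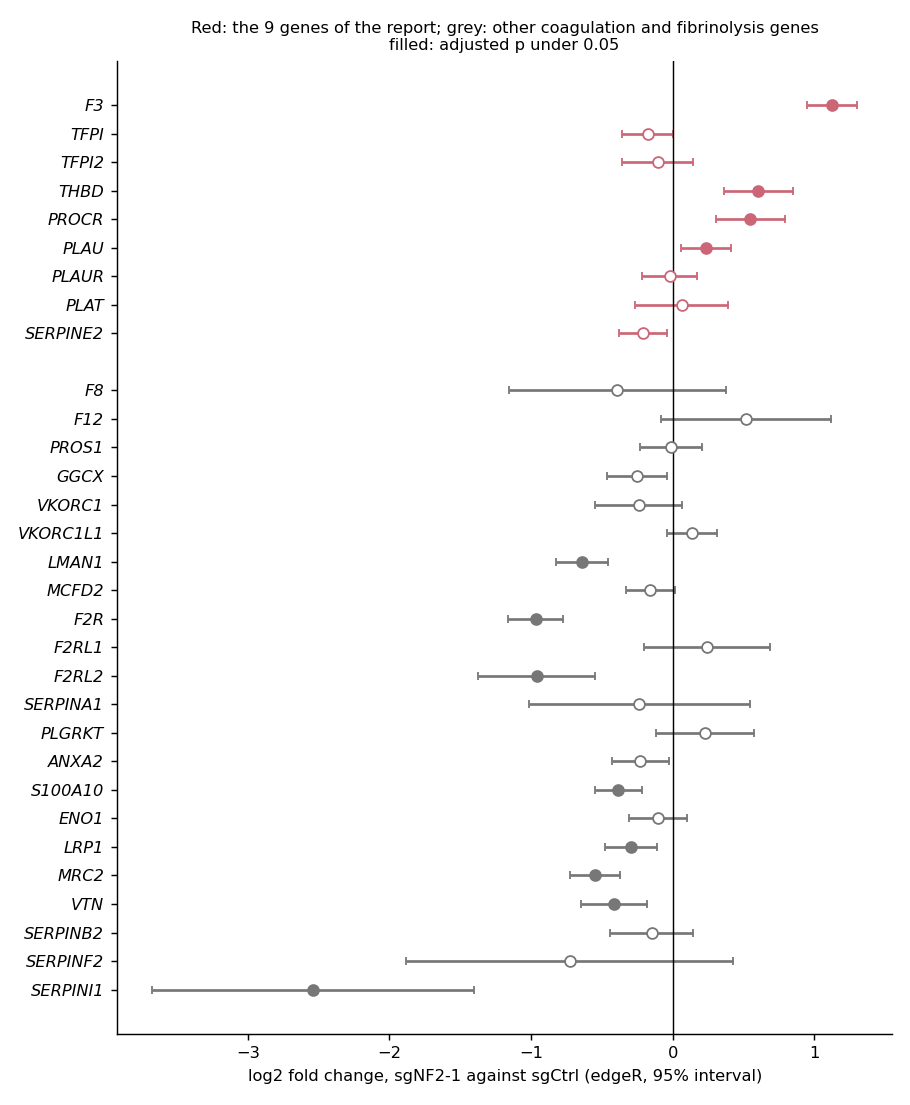
Log2 fold change (horizontal axis, sgNF2-1 against sgCtrl, edgeR, bars for the 95% interval) of the 9 members in red and of other tested genes of coagulation and fibrinolysis in grey, with filled points for an adjusted p under 0.05. The filled red points lie to the right of 0 (4 genes, *F3* furthest at 1.13). The filled grey points lie to the left (8 genes, *SERPINI1* furthest at -2.54 on few counts, *F2R* at -0.97). Among all tested genes 17.7% were higher and 16.6% lower, and the genes were chosen with earlier results of these data known.

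The increase of *F3* stood apart from most of its surroundings on chromosome 1. Among the 30 nearest tested genes, up to 3456 kb away, 3 were higher, 11 were lower and the median log2 fold change was -0.28. *F3* ranked second after *ARHGAP29* at 1.56, a gene named after its values were seen. In the segment from 54 to 98 Mb of that chromosome, also chosen after values were seen, 39.5% of 147 tested genes were lower and 7.48% higher, against 18.8% and 16.8% of 1278 on the rest of the chromosome. The part of this segment in the result was not tested. For *THBD*, *PROCR* and *PLAU* the median log2 fold changes of the 30 nearest tested genes were 0.023, 0.067 and -0.17.

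Over the 6 libraries, the protein-coding genes whose log2 CPM followed that of *F3* most closely were *SLC22A5* (Pearson r = 0.9995), *C17orf51* (0.9985) and *GPT2* (0.9979). These r values rest on 6 points in 2 groups and describe a shared shift, and 623 of 11611 candidates had an r above 0.95. Genes that overlap a member had few counts or shared no exon bases with it. *C10orf55*, on the opposite strand of *PLAU* with 916 shared exon bases, had 6 to 14 counts, and AC007319.1, antisense to *TFPI*, had 11 to 17. *MMP24OS*, on the strand opposite *PROCR*, had 924 to 1164 counts but shared 0 exon bases with it, and its log2 fold change was 0.020. The sources used here do not say whether counting used strand, so reads in shared bases cannot be assigned to one gene or the other.

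Several of the members are known from other cell types, whose markers were summed. Of 8 mesothelial markers, 6 were tested, and the summed level was 638.0 to 721.0 CPM in sgCtrl and 362.0 to 447.0 CPM in sgNF2-1. *MSLN*, mesothelin, was higher (log2 fold change 0.66), *WT1* (-1.04), *PDPN* (-1.28) and *KRT19* (-0.94), which made up most of the sum at 566.0 and 296.0 CPM, were lower, and *KRT5* and *HP* had at most 3 and 2 counts. The 7 endothelial markers summed to 6.92 to 8.89 CPM and 2.27 to 3.43 CPM, with *TEK* and *EMCN* at 0. Of the 2 that could be tested, *PECAM1*, most of the sum in sgCtrl, went from 6.31 to 1.30 CPM (log2 fold change -2.28), and *CDH5* was at 0.898 and 1.18 CPM (0.37, edgeR adjusted p = 0.53). The 6 megakaryocyte and platelet markers summed to 5.01 to 7.55 CPM and 4.42 to 4.79 CPM, with *PF4*, *PPBP* and *GP9* at 0. The 6 macrophage and leukocyte markers summed to 136.0 to 150.0 CPM and 65.2 to 72.7 CPM, nearly all of it *CD14*, with *PTPRC*, which marks leukocytes, at 0. The *KRT19*, *PECAM1* and *CD14* levels were thus lower in sgNF2-1 while *F3*, *THBD* and *PROCR* were higher, and the part of these markers in the results was not tested. In bulk RNA, fewer cells of a kind and less RNA per cell cannot be told apart.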

How the data were processed

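RNA was measured in 3 sgCtrl and 3 sgNF2-1 libraries of H2452 cells, grouped by the sample titles. Per gene, the authors deposited unnormalized read counts, and FPKM made from them. The paper's methods give paired-end NovaSeq sequencing and DESeq2, and the submitters' processing notes list HISAT2, StringTie 1.3.3b, featureCounts 1.5.0-p3 and hg38. The deposited FPKM equal the count over length and 1 depth per library, within 1%, for all 9890 genes checked. Whether counting used strand is not given in the sources used here. There were 0 unused sample columns.

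Counts were filtered (filterByExpr, minimum count 10, minimum total 15), TMM-normalized and tested with the quasi-likelihood test of edgeR 4.0.16 in R 4.3.3, with Benjamini-Hochberg adjustment over 14179 genes. FPKM were tested with limma 3.58.1 on log2(FPKM + 1) for 13038 genes with a mean of at least 0.5. Alternatives were DESeq2 1.42.0, other scalings, filters, fold limits, a pseudocount of 0.1, a replicate block and leaving out each library. For counts, "12 alternative fits" are these without the fold limits. The procedures were tested on simulated data. The members and gene lists were chosen with earlier results of these data known. Named genes are the members, the other pathway genes that passed, *SERPINB2*, *F2R*, *F2RL1*, *F7*, *F10*, *PLG*, *F2*, overlapping genes and the 3 genes most like *F3*. A further gene under that rule is left out here. *ANXA2*, *GGCX*, *PROS1*, *F2RL3* and *ARHGAP29* were named after their values were seen. Promoter windows are from RefSeq (GRCh38.p14), with 250 bases before the start.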

Additional observations from a re-analysis of the deposited data

How the results depend on the processing

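*F3*, *THBD* and *PROCR* kept their direction and their call under the 12 alternative fits. *PLAU* lost its call with library totals (log2 fold change 0.21), with no filter (0.25), with a fold limit of 0.5 at either p (0.24) and in 4 of the 6 fits without 1 library. Over those 6 fits it ran from 0.20 to 0.27, and it passed without sgNF2-1 replicate 1 or 3. *SERPINE2* gained a call with DESeq2 (-0.21), with its size factors in edgeR (-0.21), with library totals (-0.24) and with at least 10 counts in every library (-0.22), and without single libraries it ran from -0.27 to -0.17. Without single libraries *TFPI* ran from -0.26 to -0.095, *PLAUR* from -0.063 to 0.029 and *PLAT* from -0.020 to 0.20. *PLAUR* was above 0 without sgCtrl replicate 1 (0.018) or sgNF2-1 replicate 1 (0.029), and on FPKM its differences there were 0.004 and 0.012, in a range from -0.071. *PLAT* was below 0 without sgNF2-1 replicate 3 (-0.020), and on FPKM -0.005 without replicate 2 and -0.021 without replicate 3, in a range up to 0.11. *PROS1* was above 0 with no filter (0.001) and without sgCtrl replicate 3 (0.012) or sgNF2-1 replicate 3 (0.051), in a range from -0.068. None of these 3 genes passed in either direction. On FPKM, *PLAU* passed with the pseudocount of 0.1 but not with no filter or in any fit without 1 library, which left 3 members higher.

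The number of members lower was 1 with DESeq2, its size factors, library totals and at least 10 counts in every library, and 0 to 1 without single libraries on counts and on FPKM, the gene being *SERPINE2*, or *TFPI* without sgCtrl replicate 1. With fewer genes meeting a fold limit of 0.5, the other pathway genes lower numbered 5, and all genes higher and lower numbered 1194 and 1322 at an adjusted p and 1308 and 1531 at an unadjusted p. Without single libraries 6 to 9 other pathway genes, 2016 to 2514 higher genes and 1880 to 2271 lower genes were called. The cause of the other shifts was not tested.

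No clear pairing by replicate number was seen, which does not establish that there was none. The deviations of same-numbered libraries correlated at -0.0319, 0.0566 and 0.0498, and those of differently numbered libraries at -0.1073 to 0.0602. With the replicate block, *SERPINE2* passed (-0.21, edgeR adjusted p = 0.035), which made 1 member lower, while *PLAU* no longer passed on FPKM (0.22, limma adjusted p = 0.055). *ANXA2*, whose adjusted p was 0.071 in edgeR, passed in 5 of the 12 alternative fits, namely the block, DESeq2, library totals and the fits without sgCtrl replicate 1 or sgNF2-1 replicate 3. *GGCX*, a gene of the vitamin K cycle with an edgeR adjusted p of 0.057, passed in 2 of the 12. Those were library totals and at least 10 counts in every library. Counts were low for *PLAT* and *SERPINI1*, and *F10* was not tested.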
